A study of Mus musculus with 12 samples.

Results

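The enzymes that build cholesterol and fatty acids, with the proteins that control and move sterols, were followed here across the zones of the mouse femoral growth plate. The set was chosen by gene symbol, from knowledge of the pathway and with earlier results of these data known. It holds 29 genes: 17 enzymes of sterol synthesis, 6 genes of sterol sensing and transfer, and 6 genes of fatty acid synthesis, desaturation and elongation. All 29 were found in the array's probe annotation, with 58 probes among 41174, and stand among 27241 features (19352 of them with a gene symbol) after 1 probe was taken per gene. Cartilage came from Swiss White mice aged 14 days, and the labels name no genotype or treatment. There were 4 samples of the proliferative zone, 4 of the prehypertrophic zone and 4 of the hypertrophic zone, cut out of cryosections by microdissection. The labels do not say whether animals were pooled or whether replicates came from separate mice. RNA was amplified before labelling, and each of 6 two-colour arrays compared samples of 2 zones. Standard errors and p-values measure how far the ratios of these arrays disagree once zone and dye are fitted, which may be technical. They do not measure the spread of samples within a zone.

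Cells make cholesterol from acetyl units by way of mevalonate, farnesyl diphosphate, squalene and lanosterol. Transcription of these enzymes is driven by SREBP proteins, which stay in the endoplasmic reticulum while sterols are plentiful and are escorted by SCAP to the Golgi for cleavage when sterols run short; INSIG proteins hold the SCAP complex back. SREBP-2 acts mainly on sterol genes, while SREBP-1c acts mainly on fatty acid genes. In the growth plate, chondrocytes divide in columns, leave the cycle, pass a prehypertrophic stage at which they secrete Indian hedgehog, a protein that carries a cholesterol group, and then enlarge. In humans, inherited defects of the late sterol enzymes EBP, NSDHL and DHCR7 affect the skeleton among other tissues.

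Markers of chondrocyte stages differed between the zones. All 7 measured hypertrophic chondrocyte markers were higher in hypertrophic than in proliferative samples, among them Col10a1, the collagen of enlarged chondrocytes, with a log2 change of 4.74 ± 0.131 (SE, adjusted p = 3.33e-05, limma). Ihh, Indian hedgehog, was higher in prehypertrophic than in proliferative samples by 3.83 ± 0.102 (SE, adjusted p = 6.55e-05, limma). Between hypertrophic and prehypertrophic samples Ihh differed by 0.081 ± 0.102 (SE, adjusted p = 0.538, limma), so it does not set these zones apart. In that comparison 3 of the 7 hypertrophic chondrocyte markers were higher and 4 did not pass. The scanner software placed 92.6% to 96.2% of a sample's spots clearly over background, and each member's brightest probe was so in all 12 samples. Changes are log2 ratios between zones from 1 limma fit over the 6 arrays, with p-values adjusted by the Benjamini-Hochberg method over 27173 tested features and called at 0.05. A level is the log2 signal of a sample less that sample's 75th percentile, comparable between samples for 1 probe but not between genes.

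Of the 17 sterol synthesis enzymes, 15 were highest in the prehypertrophic zone. Against the proliferative zone, 21 of 29 members were higher in the prehypertrophic zone, where 23.4% of all features were, and 4 of 29 were lower, where 22.5% of all features were. Their median log2 change was 0.97, against 0.02 over all features. In the hypertrophic zone 27 of 29 members were lower than in the prehypertrophic zone, a call made for 30.0% of all features, and 0 were higher, a call made for 28.0%. The median change at that step was -1.32, against -0.04 over all features. Both calls together, higher in prehypertrophic than in proliferative samples and lower again in hypertrophic samples, were made for 19 of 29 members and for 11.0% of all features. Between the ends of the series, 7 members were higher in hypertrophic than in proliferative samples and 20 were lower, calls made for 28.2% and 30.7% of all features, with a median of -0.39 against -0.03. Of the called members measured on both arrays of a pair of zones, the arrays gave the same sign for 26 of 26 between hypertrophic and proliferative samples, 25 of 25 between prehypertrophic and proliferative samples, and 25 of 26 between hypertrophic and prehypertrophic samples. The calls come from a fit to these same arrays and favour members on which they agree. These counts are therefore not separate evidence.

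**Figure D1:**
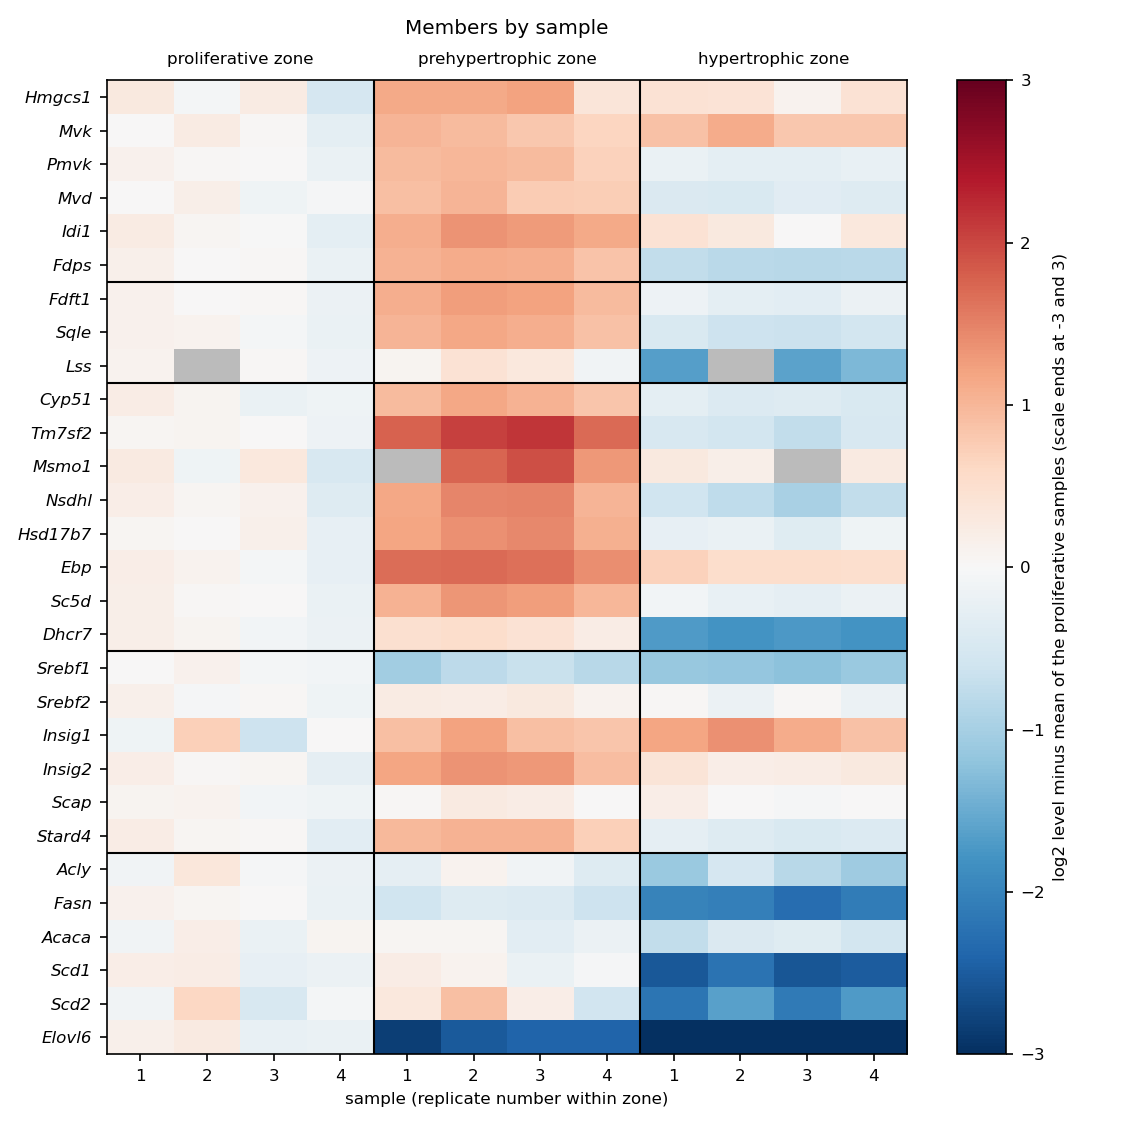
Level of each of the 29 members (rows, ordered by role) in each of the 12 samples (columns, by zone), as log2 level minus the mean of the proliferative samples; grey cells are ratios left out because a spot was flagged. The sterol enzymes at the top are red in the prehypertrophic samples measured, except for Lss, and the fatty acid genes at the bottom are blue in the hypertrophic samples.

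Markers of other cells and of dividing cells differed between the zones too. All 12 leukocyte and marrow markers were higher in hypertrophic than in proliferative samples, and their mean log2 level ran from 2.04 to 2.34 in hypertrophic samples, against -1.71 to -0.81 in proliferative samples. All 5 measured erythroid markers, 5 of 7 endothelial, 4 of 6 osteoclast and 4 of 5 osteoblast markers were also higher there, 1 osteoclast and 1 osteoblast marker were lower, and 5 of 10 chondrocyte markers were lower and 1 was higher. The mean osteoblast level ran from 0.52 to 1.70 in hypertrophic samples, against -0.36 to 0.79 in proliferative samples. Their part in the lower member levels of the hypertrophic zone was not tested, and in bulk tissue fewer cells of a type and less RNA per cell cannot be told apart. Between prehypertrophic and proliferative samples, 2 of 12 leukocyte and marrow markers were higher and 0 lower, and of 5 erythroid markers 0 were called in either direction. Of 6 osteoclast markers 2 were higher and 1 lower, of 7 endothelial markers 1 was higher and 2 lower, of 5 osteoblast markers 2 were higher and 2 lower, and of 10 chondrocyte markers 1 was higher and 3 lower. Mean leukocyte and marrow levels ran from -1.40 to -0.63 in prehypertrophic samples. Of 5 measured markers of cycling cells, 0 were higher and 3 lower in prehypertrophic than in proliferative samples, with a median log2 change of -2.94, and 4 were higher and 1 lower in hypertrophic than in prehypertrophic samples, with a median of 1.85. Their mean level ran from 1.56 to 1.71 in proliferative, from -0.90 to -0.68 in prehypertrophic and from 1.07 to 1.14 in hypertrophic samples, lowest in the zone where most sterol enzymes were highest; the part of cycling cells in the member values was not tested. Of 9 measured adipocyte markers, 3 were higher and 3 lower in hypertrophic than in proliferative samples; Fabp4, a fatty acid carrier of fat cells and some other cells, differed by 2.36 ± 0.126, Adipoq, a fat cell hormone, by 1.68 ± 0.139 and Lpl, a secreted lipase, by -1.35 ± 0.03 (SE). The mean level of the adipocyte markers ran from -1.42 to -1.09 in hypertrophic samples, against -1.44 to -1.35 in proliferative samples.

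The mevalonate part turns acetyl units into farnesyl diphosphate, and all 6 of its members were higher in prehypertrophic than in proliferative samples, by a median of 0.93. Hmgcs1 makes HMG-CoA, the entry to the pathway, and changed by 0.97 ± 0.097 in the prehypertrophic zone (SE, adjusted p = 0.00197, limma). It was lower in hypertrophic than in prehypertrophic samples, with a log2 change of -0.68 ± 0.097, and its difference of 0.29 ± 0.097 between hypertrophic and proliferative samples did not pass (adjusted p = 0.0625, limma). One prehypertrophic spot of Hmgcs1 was saturated, and with saturated spots left out that difference passed, at 0.37 (adjusted p = 0.00298, limma). It also passed with its probes averaged, under a stricter filter on dim probes, in either separate-channel fit and without the array of hypertrophic replicate 3 and prehypertrophic replicate 1 or that of prehypertrophic and proliferative replicate 4, at 0.29 to 0.47 (adjusted p = 0.00346 to 0.0459, limma). By its brightest probe Mvk, mevalonate kinase, departed from the shared pattern. It differed by 0.90 ± 0.063 between prehypertrophic and proliferative samples (adjusted p = 0.000662, limma). It stayed there, with -0.009 ± 0.063 between hypertrophic and prehypertrophic samples (adjusted p = 0.913, limma). The dimmer probe of Mvk gave 0.17 ± 0.08 and -0.42 ± 0.08 in these comparisons (SE, adjusted p = 0.148 and 0.0117, limma), so the departure depends on the probe.

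Pmvk, which phosphorylates mevalonate phosphate, had log2 levels of 2.79, 2.69, 2.66 and 2.46 in proliferative samples, 3.61, 3.65, 3.59 and 3.33 in prehypertrophic samples, and 2.45, 2.35, 2.36 and 2.42 in hypertrophic samples. The prehypertrophic samples were the highest and none overlapped another zone. Pmvk changed by 0.87 ± 0.028 between prehypertrophic and proliferative samples and by -1.14 ± 0.028 between hypertrophic and prehypertrophic samples (SE, adjusted p = 9.09e-05 and 5e-05, limma). Mvd, the decarboxylase that yields the first isoprene unit, had log2 levels of -0.3, -0.13, -0.44 and -0.34 in proliferative samples, 0.59, 0.71, 0.45 and 0.44 in prehypertrophic samples, and -0.74, -0.77, -0.65 and -0.68 in hypertrophic samples. Again the 3 zones did not overlap, with hypertrophic samples the lowest. Mvd changed by 0.79 ± 0.025 between prehypertrophic and proliferative samples and by -1.23 ± 0.025 at the following step (SE, adjusted p = 8.51e-05 and 4.24e-05, limma).

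Idi1, the isomerase of the isoprene units, had log2 levels of 3.59, 3.41, 3.33 and 3.06 in proliferative samples, 4.43, 4.69, 4.63 and 4.49 in prehypertrophic samples, and 3.79, 3.63, 3.35 and 3.67 in hypertrophic samples. Prehypertrophic samples stood above both other zones, which overlapped each other. Idi1 changed by 1.30 ± 0.031 between prehypertrophic and proliferative samples and by -0.98 ± 0.031 between hypertrophic and prehypertrophic samples (SE, adjusted p = 5.68e-05 and 7.06e-05, limma). Fdps joins these units into farnesyl diphosphate, the branch point to sterols and to protein prenylation, and had log2 levels of 1.22, 1.08, 1.09 and 0.86 in proliferative samples, 2.11, 2.17, 2.15 and 1.92 in prehypertrophic samples, and 0.33, 0.26, 0.22 and 0.25 in hypertrophic samples. No zones overlapped, and the hypertrophic samples lay within a narrow band at the bottom. By brightest probes, Fdps had the largest fall of the 6 between hypertrophic and prehypertrophic samples, -1.80 ± 0.026 or 3.48-fold lower (SE, adjusted p = 3.91e-05, limma), after 1.03 ± 0.026 between prehypertrophic and proliferative samples. The dimmer probe of Fdps gave -0.74 ± 0.05 and 0.96 ± 0.05 in these comparisons (SE, adjusted p = 0.000752 and 0.000434, limma). Between hypertrophic and proliferative samples that probe was higher, by 0.23 ± 0.05 (SE, adjusted p = 0.0257, limma).

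The next enzymes commit farnesyl diphosphate to sterols. Fdft1, squalene synthase, had log2 levels of 1.74, 1.62, 1.65 and 1.45 in proliferative samples, 2.7, 2.86, 2.82 and 2.56 in prehypertrophic samples, and 1.47, 1.32, 1.3 and 1.45 in hypertrophic samples. Prehypertrophic samples stood clear above the other zones, which overlapped. Fdft1 changed by 1.11 ± 0.025 between prehypertrophic and proliferative samples and by -1.30 ± 0.025 between hypertrophic and prehypertrophic samples (SE, adjusted p = 5.37e-05 and 4.24e-05, limma). Sqle, the epoxidase that adds oxygen to squalene, had log2 levels of 3.86, 3.82, 3.67 and 3.53 in proliferative samples, 4.73, 4.87, 4.82 and 4.6 in prehypertrophic samples, and 3.27, 3.11, 3.08 and 3.16 in hypertrophic samples. The zones did not overlap, with prehypertrophic samples highest and hypertrophic samples lowest. Sqle changed by 1.05 ± 0.027 between prehypertrophic and proliferative samples and by -1.60 ± 0.027 at the following step (SE, adjusted p = 6.19e-05 and 4e-05, limma).

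By its brightest probe Lss, which closes squalene epoxide into the ring system of lanosterol, was the exception among the 17 sterol enzymes on entry to the prehypertrophic zone. Its log2 levels were 0.41, 0.33 and 0.15 in 3 proliferative samples, 0.37, 0.72, 0.61 and 0.18 in prehypertrophic samples, and -1.35, -1.31 and -1.06 in 3 hypertrophic samples, with the array of the remaining proliferative and hypertrophic sample left out of the fit because a spot was flagged. Proliferative and prehypertrophic samples overlapped, and hypertrophic samples lay well below both. Lss differed by 0.061 ± 0.069 between prehypertrophic and proliferative samples (SE, adjusted p = 0.545, limma). It was 3.22-fold lower in hypertrophic than in prehypertrophic samples, a change of -1.69 ± 0.069 (SE, adjusted p = 0.000496, limma). The next brightest probe of Lss gave 0.71 ± 0.06 and -1.73 ± 0.06 in these comparisons (SE, adjusted p = 0.00129 and 0.00011, limma). Its dimmest probe gave 0.10 ± 0.04 and -0.29 ± 0.04 (SE, adjusted p = 0.147 and 0.00656, limma). Whether Lss is an exception therefore depends on the probe.

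By brightest probes, all 8 enzymes from lanosterol to cholesterol peaked in the prehypertrophic zone, a call made for 11.0% of all features. Their median change was 1.30 against the proliferative zone and -1.44 in hypertrophic against prehypertrophic samples. Cyp51, which removes the first methyl group of lanosterol, had log2 levels of 0.03, -0.11, -0.4 and -0.33 in proliferative samples, 0.75, 0.95, 0.85 and 0.63 in prehypertrophic samples, and -0.49, -0.62, -0.6 and -0.65 in hypertrophic samples. Prehypertrophic samples exceeded all others, and the hypertrophic samples were the lowest without overlap. Cyp51 changed by 1.03 ± 0.057 between prehypertrophic and proliferative samples and by -1.42 ± 0.057 between hypertrophic and prehypertrophic samples (SE, adjusted p = 0.000335 and 0.000119, limma). Tm7sf2, a sterol C14-reductase, had log2 levels of 0.52, 0.56, 0.49 and 0.31 in proliferative samples, 2.24, 2.52, 2.62 and 2.18 in prehypertrophic samples, and -0.01, -0.07, -0.27 and -0.01 in hypertrophic samples. No zones overlapped, and the prehypertrophic samples were set far above the rest. Tm7sf2 had the largest changes of the sterol enzymes: 1.95 ± 0.044 or 3.86-fold higher in prehypertrophic than in proliferative samples, and -2.43 ± 0.044 or 5.39-fold lower in hypertrophic than in prehypertrophic samples (SE, adjusted p = 5.42e-05 and 4.1e-05, limma). That fall ranked 72 from the lowest of 27173 tested features.

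Msmo1, the oxidase that begins removal of the C4 methyl groups, had log2 levels of 4.77, 4.37, 4.82 and 4.02 in proliferative samples, 6.24, 6.42 and 5.79 in 3 prehypertrophic samples, and 4.78, 4.67 and 4.76 in 3 hypertrophic samples. One array was left out of the fit of Msmo1 because a spot was flagged, and 1 prehypertrophic spot was saturated. Prehypertrophic samples lay above both other zones, which overlapped. Msmo1 changed by 1.67 ± 0.043 between prehypertrophic and proliferative samples and by -1.44 ± 0.051 between hypertrophic and prehypertrophic samples (SE, adjusted p = 0.000225 and 0.000357, limma). Nsdhl, the dehydrogenase of the same demethylation, had log2 levels of 2.12, 1.96, 2.04 and 1.52 in proliferative samples, 3.07, 3.38, 3.39 and 2.93 in prehypertrophic samples, and 1.31, 1.15, 0.94 and 1.17 in hypertrophic samples. Each zone kept its own range, highest in prehypertrophic and lowest in hypertrophic samples. Nsdhl changed by 1.35 ± 0.027 between prehypertrophic and proliferative samples and was 4.19-fold lower in hypertrophic than in prehypertrophic samples, a change of -2.07 ± 0.027 (SE, adjusted p = 4.81e-05 and 3.91e-05, limma).

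Hsd17b7, the ketoreductase of that demethylation, had log2 levels of 0.75, 0.71, 0.84 and 0.45 in proliferative samples, 1.88, 2.06, 2.13 and 1.76 in prehypertrophic samples, and 0.45, 0.48, 0.33 and 0.56 in hypertrophic samples. Prehypertrophic samples were highest, and the other zones overlapped. Hsd17b7 changed by 1.26 ± 0.024 between prehypertrophic and proliferative samples and by -1.43 ± 0.024 between hypertrophic and prehypertrophic samples (SE, adjusted p = 4.44e-05 and 3.98e-05, limma). The dimmer probe of Hsd17b7 gave 1.43 ± 0.07 and 0.31 ± 0.07 in these comparisons (SE, adjusted p = 0.000287 and 0.0219, limma), so its fall depends on the probe. Ebp, the isomerase that shifts a ring double bond, had log2 levels of 2.33, 2.24, 2.07 and 1.89 in proliferative samples, 3.8, 3.82, 3.79 and 3.52 in prehypertrophic samples, and 2.82, 2.65, 2.67 and 2.64 in hypertrophic samples. Its zones did not overlap, and unlike most sterol enzymes its lowest samples were proliferative. Ebp was 3.09-fold higher in prehypertrophic than in proliferative samples (1.63 ± 0.026), fell by 1.08 at the next step, and remained 0.55 ± 0.026 above the proliferative samples in the hypertrophic zone (SE, adjusted p = 4.04e-05, 4.92e-05 and 0.000126, limma).

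Sc5d, the desaturase of the sterol ring, had log2 levels of 2.79, 2.64, 2.62 and 2.41 in proliferative samples, 3.66, 3.93, 3.88 and 3.6 in prehypertrophic samples, and 2.54, 2.4, 2.35 and 2.44 in hypertrophic samples. The prehypertrophic range stood apart from the other zones, which overlapped. Sc5d changed by 1.18 ± 0.035 between prehypertrophic and proliferative samples and by -1.32 ± 0.035 between hypertrophic and prehypertrophic samples (SE, adjusted p = 8.13e-05 and 5.58e-05, limma). The dimmer probe of Sc5d gave -0.52 ± 0.03 and -0.11 ± 0.03 in these comparisons (SE, adjusted p = 0.000593 and 0.0458, limma), so its peak depends on the probe. Dhcr7, which reduces 7-dehydrocholesterol to cholesterol, had log2 levels of 2.19, 2.09, 1.94 and 1.84 in proliferative samples, 2.49, 2.55, 2.46 and 2.24 in prehypertrophic samples, and 0.32, 0.23, 0.29 and 0.23 in hypertrophic samples. The zones were separate, but the proliferative and prehypertrophic samples lay close together and the hypertrophic samples far below. Dhcr7 changed by only 0.41 ± 0.031 between prehypertrophic and proliferative samples and was 4.52-fold lower in hypertrophic than in prehypertrophic samples, a change of -2.18 ± 0.031 (SE, adjusted p = 0.000838 and 3.91e-05, limma). The dimmer probe of Dhcr7 gave -0.19 ± 0.05 at that second step, and the average of both probes gave -1.18 (adjusted p = 0.0291 and 9.79e-05, limma). Over all 17 sterol enzymes, 16 were higher in prehypertrophic than in proliferative samples, 16 were lower in hypertrophic than in prehypertrophic samples, and 15 met both calls. These calls were made for 23.4%, 30.0% and 11.0% of all features. Against the proliferative zone, 4 of the 17 were higher in the hypertrophic zone, 12 were lower and 1 did not pass. Higher and lower calls there were made for 28.2% and 30.7% of all features. The higher call of Msmo1, at 0.23, was lost without some single arrays (adjusted p = 0.0593 to 0.115, limma). So was the lower call of Sc5d, at -0.14 (adjusted p = 0.065 to 0.131, limma).

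**Figure D2:**
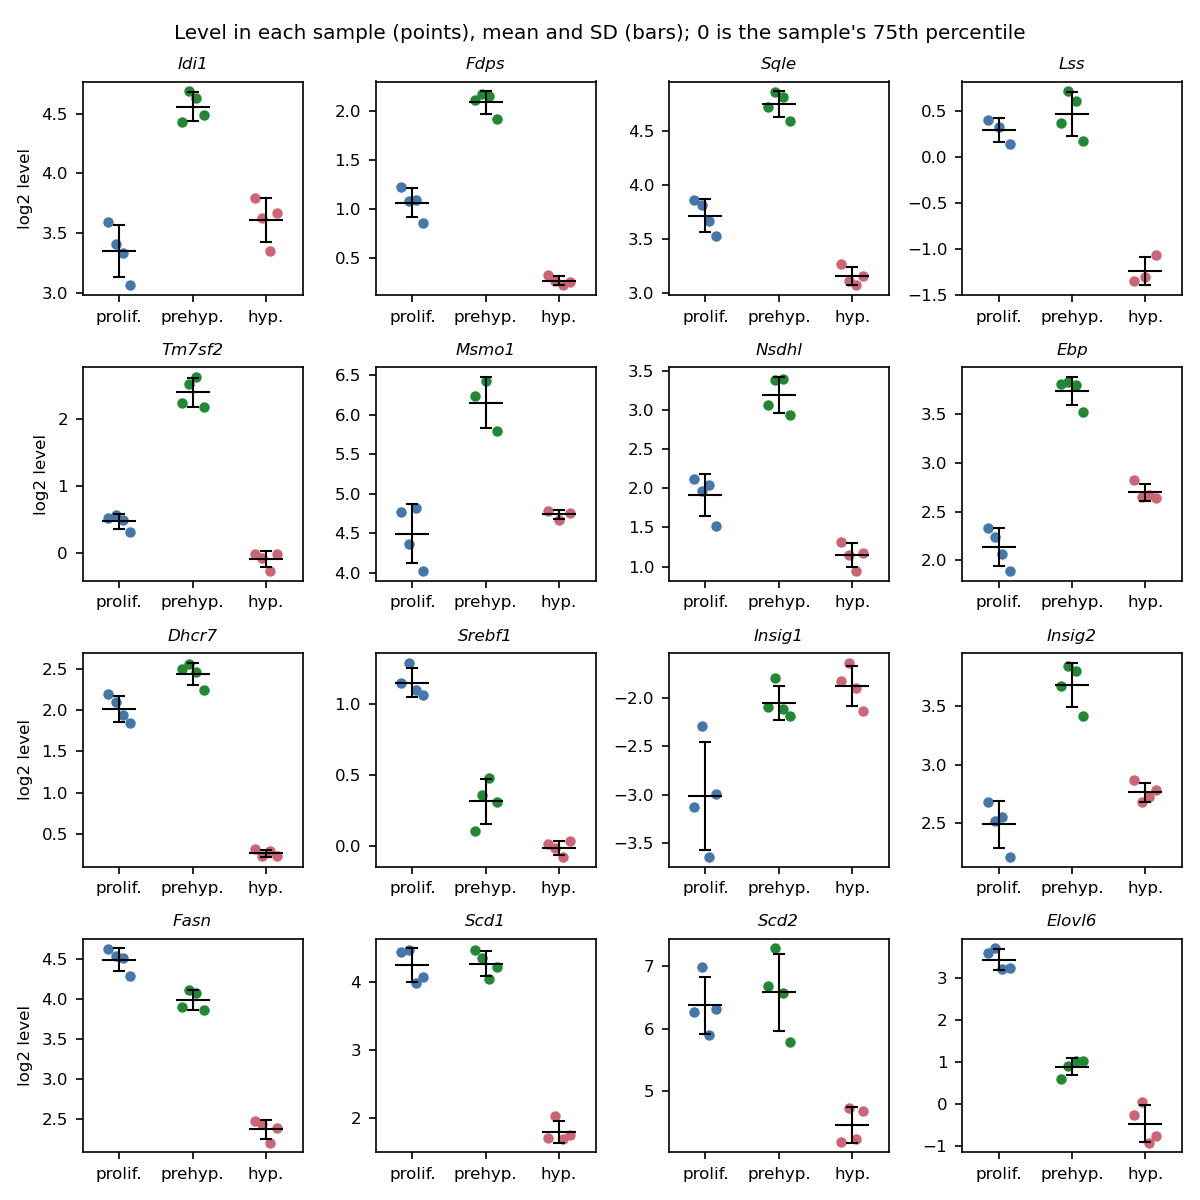
Log2 level of 16 members in each sample (points) by zone, with the mean and SD of each zone's samples (n = 4, or 3 where a flagged array is left out); 0 is the sample's 75th percentile, and the axes differ between panels. Tm7sf2, Msmo1, Nsdhl and Ebp are highest in the prehypertrophic samples, while Scd1, Scd2, Fasn and Elovl6 are lowest in the hypertrophic samples.

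The regulators did not share 1 pattern. Srebf1, which encodes SREBP-1, had log2 levels of 1.15, 1.29, 1.1 and 1.06 in proliferative samples, 0.1, 0.36, 0.48 and 0.31 in prehypertrophic samples, and 0.01, -0.02, -0.08 and 0.03 in hypertrophic samples. The proliferative samples were highest and no zones overlapped. Srebf1 was lower, with a log2 change of -0.81 ± 0.063 in prehypertrophic against proliferative samples and of -1.05 ± 0.063 in hypertrophic against proliferative samples (SE, adjusted p = 0.000885 and 0.00026, limma). The further -0.24 ± 0.063 between hypertrophic and prehypertrophic samples passed narrowly (SE, adjusted p = 0.0304, limma), and the call was lost without any 1 of the 6 arrays, at -0.30 to -0.21 (adjusted p = 0.0511 to 0.0768, limma), and with array pairs averaged (adjusted p = 0.146, limma). Srebf2, which encodes SREBP-2, changed by 0.20 ± 0.032 between prehypertrophic and proliferative samples and by -0.23 ± 0.032 between hypertrophic and prehypertrophic samples, and its -0.031 ± 0.032 between hypertrophic and proliferative samples did not pass (SE, adjusted p = 0.00865, 0.00433 and 0.46, limma). Scap, the escort of both SREBP proteins, moved by no more than 0.18 ± 0.023 in any comparison, the value for prehypertrophic against proliferative samples (SE, adjusted p = 0.00476, limma). Scap counts as peaking in the prehypertrophic zone through -0.077 ± 0.023 between hypertrophic and prehypertrophic samples (SE, adjusted p = 0.048, limma). That call was lost without any 1 of the 6 arrays (adjusted p = 0.0877 to 0.159, limma). It was also lost without loess, with median centring and with robust moderation, among other alternatives. Without the array of proliferative and prehypertrophic replicate 3, the changes of Srebf2 and Scap between prehypertrophic and proliferative samples no longer passed, at 0.20 and 0.17 (adjusted p = 0.0629 and 0.0501, limma). With array pairs averaged neither passed (adjusted p = 0.0699 and 0.0751, limma). Srebf2 also did not pass without the array of prehypertrophic and proliferative replicate 4, at 0.18 (adjusted p = 0.0509, limma).

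Insig1, a sterol-dependent anchor of SCAP and itself an SREBP target, had log2 levels of -3.13, -2.29, -3.64 and -2.99 in proliferative samples, -2.1, -1.8, -2.12 and -2.19 in prehypertrophic samples, and -1.83, -1.64, -1.9 and -2.14 in hypertrophic samples. Proliferative samples were lowest and spread widely, and the other zones overlapped. Insig1 was higher by 1.09 ± 0.04 in prehypertrophic and by 1.09 ± 0.04 in hypertrophic than in proliferative samples (SE, adjusted p = 0.000119 and 6.41e-05, limma). Insig2, the second anchor, had log2 levels of 2.68, 2.52, 2.55 and 2.21 in proliferative samples, 3.67, 3.84, 3.8 and 3.42 in prehypertrophic samples, and 2.87, 2.68, 2.72 and 2.78 in hypertrophic samples. Its prehypertrophic samples were highest, and hypertrophic samples at most touched the top of the proliferative range. Insig2 changed by 1.19 ± 0.026 between prehypertrophic and proliferative samples and by -0.91 ± 0.026 between hypertrophic and prehypertrophic samples (SE, adjusted p = 5.19e-05 and 6.11e-05, limma). Stard4, a soluble carrier of cholesterol, had log2 levels of 3.52, 3.37, 3.34 and 3.0 in proliferative samples, 4.28, 4.36, 4.36 and 4.02 in prehypertrophic samples, and 3.04, 2.92, 2.85 and 2.89 in hypertrophic samples. Prehypertrophic samples were above all others, and the other zones overlapped. Stard4 changed by 0.98 ± 0.024 between prehypertrophic and proliferative samples and by -1.35 ± 0.024 between hypertrophic and prehypertrophic samples (SE, adjusted p = 5.81e-05 and 4e-05, limma).

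None of the 6 fatty acid genes peaked in the prehypertrophic zone, a call made for 11.0% of all features. All 6 were lower in the hypertrophic zone than in either other zone, by medians of -2.11 against proliferative and -1.53 against prehypertrophic samples, calls made for 30.7% and 30.0% of all features. Between prehypertrophic and proliferative samples 3 of 6 were lower, a call made for 22.5% of all features, and 3 did not pass. The median against proliferative samples lies midway between Scd2 and Fasn, and Scd2 had saturated spots; the median against prehypertrophic samples does not rest on Scd2. Acly, which supplies acetyl-CoA from citrate, was lower, with a log2 change of -0.87 ± 0.112 in hypertrophic against proliferative samples (SE, adjusted p = 0.00331, limma). Acaca, acetyl-CoA carboxylase and the first committed step, was lower, with a log2 change of -0.59 ± 0.042 in hypertrophic and of -0.20 ± 0.042 in prehypertrophic against proliferative samples (SE, adjusted p = 0.00047 and 0.0209, limma); the second call was lost on leaving out any 1 of 4 of the 6 arrays, at -0.20 to -0.16. Fasn, the synthase that builds palmitate, had log2 levels of 4.62, 4.54, 4.51 and 4.29 in proliferative samples, 3.9, 4.11, 4.08 and 3.87 in prehypertrophic samples, and 2.48, 2.44, 2.21 and 2.39 in hypertrophic samples. The zones were separate and stepped downwards, most of the drop coming between prehypertrophic and hypertrophic samples. Fasn was 4.12-fold lower in hypertrophic than in proliferative samples, a change of -2.04 ± 0.026 (SE, adjusted p = 1.82e-05, limma), with -1.59 ± 0.026 of it between hypertrophic and prehypertrophic samples. The dimmer probe of Fasn gave -0.65 ± 0.08 and -0.17 ± 0.07 in these comparisons (SE, adjusted p = 0.00838 and 0.122, limma), and the average of both probes -1.57 and -1.0.

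The desaturases Scd1 and Scd2 put the first double bond into saturated fatty acids. Scd1 had log2 levels of 4.44, 4.48, 3.99 and 4.08 in proliferative samples, 4.47, 4.35, 4.04 and 4.22 in prehypertrophic samples, and 1.7, 2.03, 1.69 and 1.74 in hypertrophic samples. Proliferative and prehypertrophic samples overlapped, and every hypertrophic sample lay far below them. Scd1 was 6.01-fold lower in hypertrophic than in prehypertrophic samples, a change of -2.59 ± 0.039 (SE, adjusted p = 3.91e-05, limma), and this ranked 54 from the lowest of 27173 features. Its difference of 0.066 ± 0.039 between prehypertrophic and proliferative samples did not pass (adjusted p = 0.242, limma). Scd2 had log2 levels of 6.27, 6.99, 5.9 and 6.32 in proliferative samples, 6.68, 7.28, 6.57 and 5.79 in prehypertrophic samples, and 4.19, 4.73, 4.24 and 4.68 in hypertrophic samples. Here too the hypertrophic samples were separate and low, although 3 proliferative and 2 prehypertrophic spots of Scd2 were saturated, so that those levels are lower bounds and the sizes of its falls may be understated. With saturated spots left out Scd2 had no value. As measured, Scd2 changed by -2.32 ± 0.185 between hypertrophic and prehypertrophic samples and by -2.18 ± 0.185 between hypertrophic and proliferative samples (SE, adjusted p = 0.000781 and 0.000821, limma).

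Elovl6, which lengthens palmitate to stearate, had log2 levels of 3.58, 3.69, 3.21 and 3.22 in proliferative samples, 0.6, 0.9, 1.02 and 1.02 in prehypertrophic samples, and -0.26, 0.04, -0.92 and -0.75 in hypertrophic samples. Every zone was separate, with proliferative samples far above the others. Elovl6 had the largest change of all 29 members: it was 12.8-fold lower in hypertrophic than in proliferative samples, -3.68 ± 0.053, and ranked 43 from the lowest of 27173 features (SE, adjusted p = 1.82e-05, limma). Most of that difference was already present in the prehypertrophic zone, at -2.21 ± 0.053 against the proliferative zone, before a further -1.47 ± 0.053 in hypertrophic against prehypertrophic samples (SE, adjusted p = 5.76e-05 and 9.53e-05, limma).

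**Figure D3:**
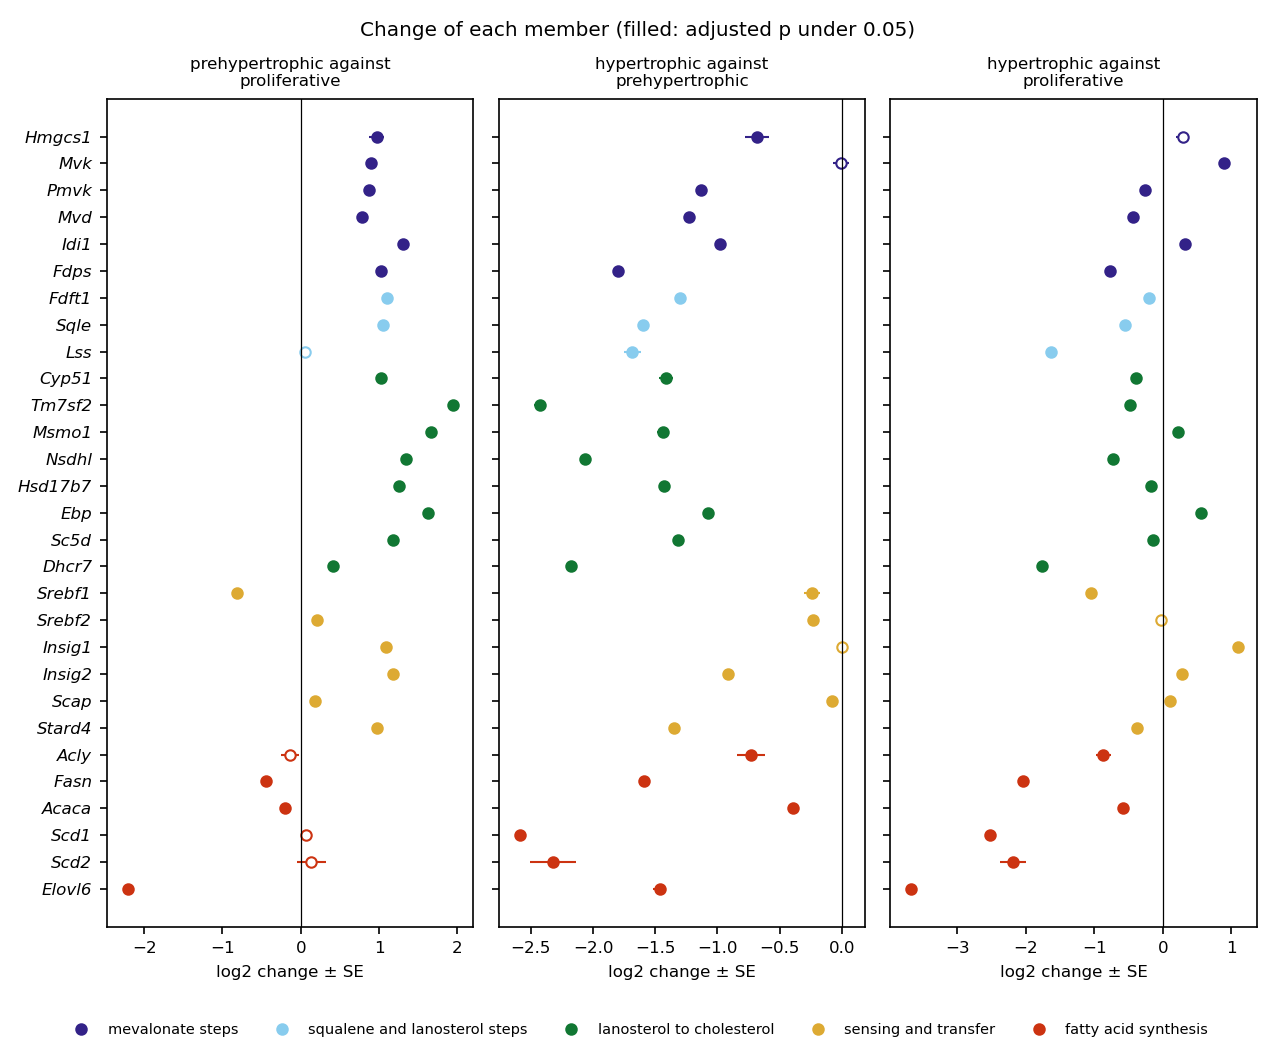
Log2 change ± SE of each member (rows, coloured by role) in 3 comparisons, with filled points at an adjusted p under 0.05; the horizontal scales differ between panels. The sterol enzymes lie right of 0 in the left panel and left of 0 in the middle panel, and Elovl6 is the lowest point of the left and right panels.

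The plot of both steps sets the groups side by side. Its comparisons share the prehypertrophic samples, so the positions are not independent measurements. Most sterol enzymes, with Insig2 and Stard4, fall in the corner that is higher in prehypertrophic than in proliferative samples and lower in hypertrophic than in prehypertrophic samples. Scd1, Scd2, Lss and Dhcr7 lie near the vertical line, with changes between -2.59 and -1.69 at the second step. Mvk and Insig1 lie on the horizontal line, higher by 0.90 and 1.09 in prehypertrophic than in proliferative samples and near 0 at the second step. These positions are of the brightest probes, and the dimmer probes of Mvk and Insig1 gave -0.42 and -0.97 at the second step.

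**Figure D4:**
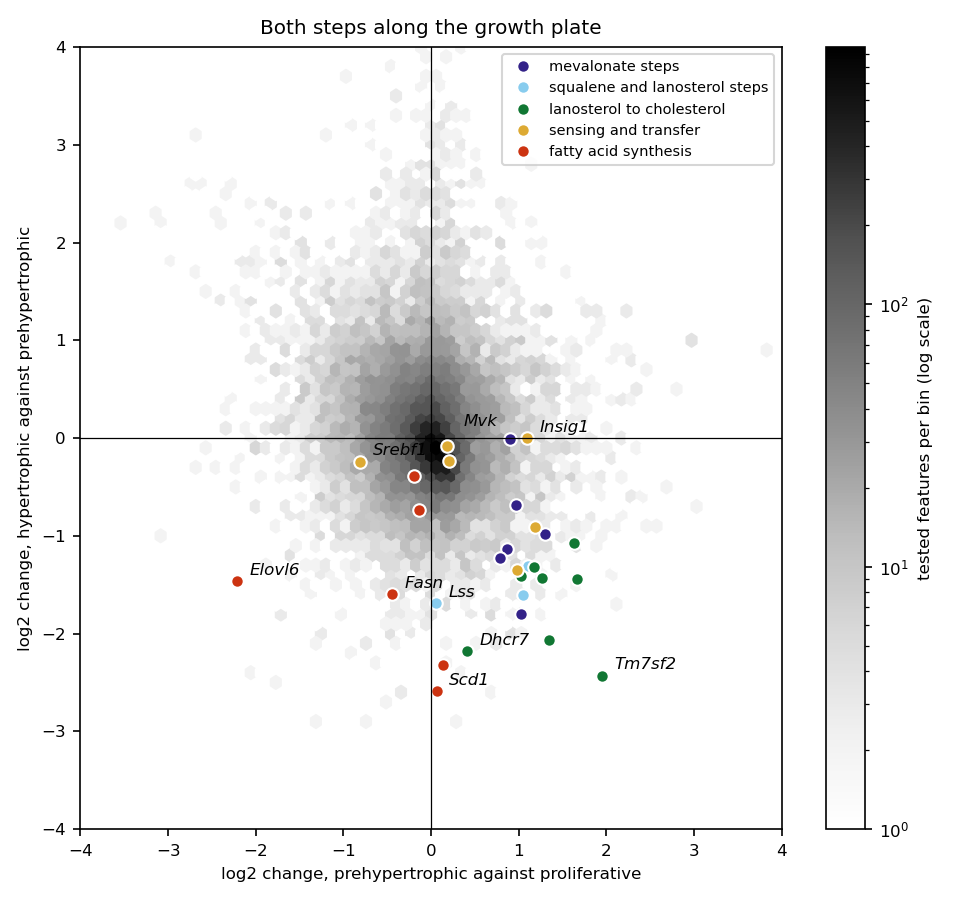
Log2 change between prehypertrophic and proliferative samples (horizontal) against that between hypertrophic and prehypertrophic samples (vertical) for the members (coloured points) and all tested features (grey bins, log scale); axes end at 4 in each direction. Tm7sf2 is the member farthest to the lower right and Elovl6 the farthest left.

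Promoters were compared because most sterol enzymes moved together. RefSeq promoters of build GRCm38.p6, from 250 bases before to 50 bases after a gene's start, were matched by gene for 23 of 29 members, giving 31 promoters. A set of 3 motifs was searched on both strands: the sterol regulatory element TCACNCCAC, the CCAAT box CCAAT and the GC box GGGCGG, of which overlapping matches were all counted. Genes with several promoters were counted as holding a motif if any promoter did. The sterol regulatory element in these letters was found in Hmgcs1 alone, 1 of 23 members (4.35%), against 1.46% of 15390 tested genes and 1.44% of all 27025 genes of the table. A CCAAT box was found in 20 of 23 members (87.0%), including all 14 sterol enzymes with a promoter, against 42.2% of tested genes and 41.1% of all genes. A GC box was found in 19 of 23 members (82.6%), against 54.2% of tested genes and 38.2% of all genes. These matches describe letters in the window and say nothing of binding. The promoters below are of Hmgcs1, which holds the sterol regulatory element, of Tm7sf2, Ebp and Nsdhl, with large prehypertrophic rises, and of Elovl6, which moved the other way and holds none of the motifs. Elovl6 does not stand for its group. Of 4 fatty acid genes with a promoter, 2 (Acly and Fasn) held a CCAAT box and 1 (Acly) a GC box. Lss and Srebf1, which were not called higher in the prehypertrophic zone, held both motifs. A relation of motifs to the direction of change was not tested. Capitals mark the sterol regulatory element and CCAAT boxes, which read ATTGG where they lie on the other strand; in Hmgcs1 the element starts 137 bases before the gene's start.
Hmgcs1 promoter (chr13:119690101-119690400, plus strand): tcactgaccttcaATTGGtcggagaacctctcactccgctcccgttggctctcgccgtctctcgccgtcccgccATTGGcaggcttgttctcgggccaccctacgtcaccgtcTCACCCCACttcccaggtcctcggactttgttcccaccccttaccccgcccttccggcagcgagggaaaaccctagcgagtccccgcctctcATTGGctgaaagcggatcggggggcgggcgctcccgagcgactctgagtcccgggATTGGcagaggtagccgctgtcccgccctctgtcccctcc
Tm7sf2 promoter (chr19:6067801-6068100, minus strand): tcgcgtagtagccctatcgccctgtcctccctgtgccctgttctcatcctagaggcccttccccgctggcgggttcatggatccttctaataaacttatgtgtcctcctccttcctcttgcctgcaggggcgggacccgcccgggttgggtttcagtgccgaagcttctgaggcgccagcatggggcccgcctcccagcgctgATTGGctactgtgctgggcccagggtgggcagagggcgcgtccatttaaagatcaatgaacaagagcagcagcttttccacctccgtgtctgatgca
Ebp promoter (chrX:8193463-8193762, minus strand): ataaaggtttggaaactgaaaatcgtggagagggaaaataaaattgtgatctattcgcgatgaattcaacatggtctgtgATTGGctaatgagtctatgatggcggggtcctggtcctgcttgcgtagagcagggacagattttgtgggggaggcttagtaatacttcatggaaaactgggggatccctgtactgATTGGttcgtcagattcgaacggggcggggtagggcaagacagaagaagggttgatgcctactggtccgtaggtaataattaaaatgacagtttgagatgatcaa
Nsdhl promoter (chrX:72918271-72918570, plus strand): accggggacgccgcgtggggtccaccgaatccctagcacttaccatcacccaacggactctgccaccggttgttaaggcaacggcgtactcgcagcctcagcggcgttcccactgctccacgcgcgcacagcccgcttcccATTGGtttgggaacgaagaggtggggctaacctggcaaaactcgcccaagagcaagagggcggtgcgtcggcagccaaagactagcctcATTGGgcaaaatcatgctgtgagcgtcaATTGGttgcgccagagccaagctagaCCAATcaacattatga
Elovl6 promoter (chr3:129532136-129532435, plus strand): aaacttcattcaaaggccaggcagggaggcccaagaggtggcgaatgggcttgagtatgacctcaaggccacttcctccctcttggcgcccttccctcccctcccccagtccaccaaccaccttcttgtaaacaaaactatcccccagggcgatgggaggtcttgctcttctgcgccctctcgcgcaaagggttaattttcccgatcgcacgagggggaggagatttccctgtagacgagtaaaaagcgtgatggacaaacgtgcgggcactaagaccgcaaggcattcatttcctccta

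Different probes of a gene did not always give the same change. In a fit with every probe kept apart, 39 of the members' 58 probes were higher in prehypertrophic than in proliferative samples, where 21.3% of all probes were, and 46 were lower in hypertrophic than in prehypertrophic samples, where 26.7% were. Of the 34 probes of sterol enzymes, 28 were higher at the first step and 30 lower at the second. Among 19 members with several probes, probes were called in opposite directions for 3 genes (Sc5d, Srebf2 and Acaca) between prehypertrophic and proliferative samples and for 1 (Hsd17b7) between hypertrophic and prehypertrophic samples. Between hypertrophic and proliferative samples it was 8 genes, namely Hmgcs1, Idi1, Fdps, Nsdhl, Hsd17b7, Srebf2, Stard4 and Acaca. Probes of a gene lay more than 1 log2 unit apart for 11 genes between hypertrophic and proliferative samples, for 4 between prehypertrophic and proliferative samples (Hmgcs1, Nsdhl, Sc5d and Acaca), and for 9 between hypertrophic and prehypertrophic samples (Fdps, Fdft1, Lss, Cyp51, Nsdhl, Hsd17b7, Sc5d, Dhcr7 and Fasn). The dimmer probe of Hsd17b7 changed by 1.74 ± 0.07 between hypertrophic and proliferative samples, while the brighter one changed by -0.17 ± 0.03 (SE, adjusted p = 9.74e-05 and 0.00659, limma). The dimmer probe of Sc5d was lower, with a log2 change of -0.52 ± 0.03 in prehypertrophic against proliferative samples. For Insig1, the dimmer probe gave -0.10 ± 0.14 between hypertrophic and proliferative samples (SE, adjusted p = 0.575, limma), so its level in hypertrophic samples depends on the probe. When the probes of a gene were averaged, Hsd17b7 and Stard4 turned to 0.78 and 0.23 between hypertrophic and proliferative samples, and Fdft1 no longer passed there, at -0.02 (adjusted p = 0.000281, 0.00521 and 0.664, limma). Averaging also gave calls to Lss between prehypertrophic and proliferative samples, at 0.35, and to Mvk and Insig1 between hypertrophic and prehypertrophic samples, at -0.21 and -0.48 (adjusted p = 0.0389, 0.0245 and 0.0074, limma). It took the call from Srebf2 between prehypertrophic and proliferative samples, at 0.10, and from Acaca between hypertrophic and prehypertrophic samples, at -0.16 (adjusted p = 0.189 and 0.0672, limma). Calls that held with averaged probes but at smaller sizes included Sc5d at 0.33 between prehypertrophic and proliferative samples. Between hypertrophic and prehypertrophic samples they included Fdft1, Hsd17b7, Sc5d and Acly at -0.74, -0.56, -0.71 and -0.41. Mvk, Idi1 and Insig1 shrank to 0.32, 0.12 and 0.49 between hypertrophic and proliferative samples. Fdps, Lss, Dhcr7 and Acly shrank to -0.27, -0.83, -0.93 and -0.51 in that same comparison.

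**Figure D5:**
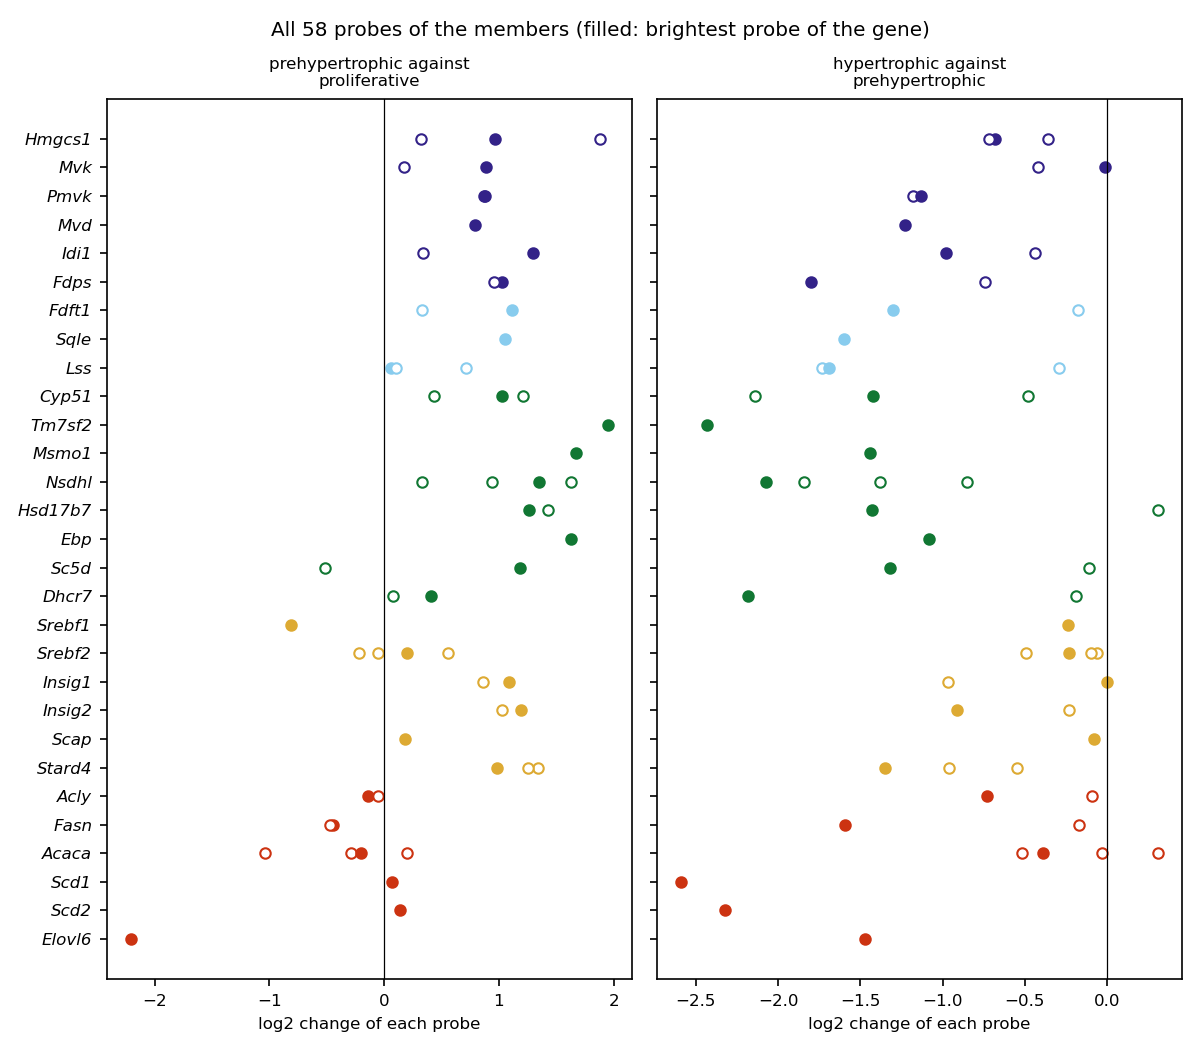
Log2 change of each of the 58 member probes (filled, the brightest probe of a gene; open, its other probes) between prehypertrophic and proliferative samples (left) and between hypertrophic and prehypertrophic samples (right), coloured by role. Apart from 1 probe of Sc5d on the left and 1 of Hsd17b7 on the right, the sterol enzymes' open points lie on the same side of 0 as the pathway's shared change.

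Genes around the pathway were listed separately, and their lists did not show the same counts. Of 5 measured other sterol pathway enzymes, 2 were higher and 3 lower in prehypertrophic than in proliferative samples, against 23.4% and 22.5% of all features. Both calls of the prehypertrophic peak were met by 0 of the 5, against 11.0% of all features, and so few genes cannot be told from that share. Lbr, a nuclear membrane protein with the same sterol C14-reductase activity as Tm7sf2, ran opposite to it, at -0.79 ± 0.04 between prehypertrophic and proliferative samples and 1.49 ± 0.04 between hypertrophic and prehypertrophic samples (SE, adjusted p = 0.000261 and 5.53e-05, limma). Dhdds and Nus1, subunits of the enzyme that makes dolichol chains, were lower in prehypertrophic than in proliferative samples, with a log2 change of -0.60 ± 0.032 and -0.73 ± 0.025, although with probes averaged Dhdds was at -0.22 and Nus1 turned to 0.15. Ggps1, which makes geranylgeranyl diphosphate, was higher by 0.51 ± 0.027 at that step, and by 0.23 with probes averaged.

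Of 11 measured regulators of sterol sensing and uptake, 5 were higher (45.5%) and 3 lower (27.3%) in prehypertrophic than in proliferative samples, against 23.4% and 22.5% of all features. The prehypertrophic peak was called for 3 of the 11, against 11.0% of all features. Mylip, a ligase that removes lipoprotein receptors, was higher by 2.47 ± 0.058 in hypertrophic than in proliferative samples, and Lrp8, one of those receptors, was lower, with a log2 change of -2.78 ± 0.064 (SE, adjusted p = 2.54e-05 and 2.41e-05, limma). With probes averaged these were 0.93 and -1.37. Vldlr, another of them, changed by 0.76 ± 0.033 between prehypertrophic and proliferative samples and by -1.66 ± 0.033 between hypertrophic and prehypertrophic samples, and Mbtps2, a protease that releases SREBP, changed by 0.96 ± 0.061 and -1.08 ± 0.061 in the same comparisons. With probes averaged, the first of these comparisons no longer passed for Vldlr, at 0.15, or for Mbtps2, at 0.23 (adjusted p = 0.122 and 0.539, limma), and Mbtps2 turned to 0.21 in the second (adjusted p = 0.535, limma). Of 12 measured genes of sterol trafficking, storage and efflux, 6 were higher and 3 lower in prehypertrophic than in proliferative samples, against the same shares of all features, and 4 peaked there, against 11.0%. Abca1, which exports cholesterol, was higher by 3.13 ± 0.213 in prehypertrophic and by 4.03 ± 0.213 in hypertrophic than in proliferative samples (SE, adjusted p = 0.000601 and 0.000182, limma). Abcg1, a second exporter, was higher by 3.47 ± 0.248 in hypertrophic than in proliferative samples (SE, adjusted p = 0.000472, limma), a zone in which the 12 leukocyte and marrow markers were higher too. Npc1, which releases cholesterol from lysosomes, peaked in the prehypertrophic zone, with 1.01 ± 0.034 against the proliferative zone and -1.34 ± 0.034 in hypertrophic against prehypertrophic samples. Cyp7b1, an oxysterol hydroxylase, was lower, with a log2 change of -1.77 ± 0.221 in prehypertrophic than in proliferative samples.

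Of 27 measured other genes of fatty acid synthesis, elongation, desaturation and activation, 6 were higher (22.2%) and 14 lower (51.9%) in hypertrophic than in proliferative samples, against 28.2% and 30.7% of all features. Between prehypertrophic and proliferative samples 10 were higher (37%) and 9 lower (33.3%), against 23.4% and 22.5% of all features. Unlike the 6 fatty acid members, 8 of these 27 peaked in the prehypertrophic zone, against 11.0% of all features. Elovl5, which elongates polyunsaturated fatty acids, was lower in hypertrophic than in proliferative samples, with a log2 change of -1.48 ± 0.031, Fads2, their delta-6 desaturase, of -1.72 ± 0.046, and Acsl3, which activates fatty acids, of -1.92 ± 0.04 (SE, adjusted p = 2.14e-05, 3.18e-05 and 2.14e-05, limma). Elovl5 peaked in the prehypertrophic zone, with 0.507 ± 0.031 against proliferative samples and -1.982 ± 0.031 in hypertrophic against prehypertrophic samples (SE, adjusted p = 0.000442 and 3.91e-05, limma). Elovl4, of very long fatty acids, was lower, with a log2 change of -2.11 ± 0.313 in prehypertrophic against proliferative samples (SE, adjusted p = 0.00695, limma), where it was well above background in 2 of 4 prehypertrophic samples.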

How the data were processed

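RNA from 12 samples was measured, 4 per zone, on 6 Agilent 44K two-colour arrays, each pair of zones on 2 arrays of opposite dye. The deposited scanner output gives 1 channel per file; its values are an intensity that, per the file headers, Agilent Feature Extraction 8.1.1.1 had corrected for background and spatial trend and scaled between dyes on the same array, with no scaling from array to array. Besides these, other deposited columns hold 0 or 1 flags for each spot. A deposited table of log2 values was left aside, because in a comparison with the scanner output only 1 of 12 columns was closest to the sample it is named for. Depth has no equivalent on arrays, whose number limits the precision.

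From these signals, log2 ratios were normalized by loess within each array with control and outlier-flagged spots given no weight, and 7249 flagged ratios were left out. Spots of a probe were averaged, and 40017 of 41174 probes, those well above background in at least 4 of 12 samples, were kept. The brightest probe stood for each gene, giving 27241 features, of which 27173 could be tested. A model of zone and dye was fitted in limma 3.58.1 (R 4.3.3) with eBayes; tests were two-sided, with Benjamini-Hochberg adjustment over all tested features and a threshold of 0.05. Residual degrees of freedom were 3 per feature, with 1.22 added by moderation. Gene symbols are those of the array annotation, and 32505 of 32691 named probes matched the RefSeq table. The steps were tested on simulated data.

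The members, the lists of other genes and the cell markers were chosen with earlier results of these data known. All 29 members are named, with values in every sample where a called log2 change reached 1; other genes are those of largest change in each list. Alternatives covered the normalization, the filters, flagged and saturated spots, the choice of probe, the model, and leaving out each array.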

Additional observations from a re-analysis of the deposited data

Results flagged for a closer look

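Within each zone's 4 samples of each member, the highest or lowest log2 level was compared with the others by Dixon's ratio, the gap to the nearest sample over the whole range. Of 83 such groups 4 held a sample beyond the ratio's 95% critical value, and chance gives about 1 in 20. Hmgcs1 was low in prehypertrophic sample 4, at 5.79 where the others lay between 6.56 and 6.62, and in hypertrophic sample 3, at 5.52 where the others lay between 5.83 and 5.85. Ebp was low in prehypertrophic sample 4, at 3.52 against 3.79 to 3.82 in the others. Scd1 was high in hypertrophic sample 2, at 2.03 against 1.69 to 1.74 in the others. None of these samples reached the range of the neighbouring zone for Ebp or Scd1, while for Hmgcs1 the low prehypertrophic sample lay within the hypertrophic range of 5.52 to 5.85 and the low hypertrophic sample within the proliferative range of 4.91 to 5.72.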

How the results depend on the processing

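Of 79 called member changes, 67 kept their direction and call under each of 19 alternatives that gave a value (Scd2 had none with saturated spots left out), and 1566 of 1650 alternative values kept direction and side of the threshold. The peak in the prehypertrophic zone held for 17 to 20 members. Averaging the 2 arrays of each pair of zones, which leaves fewer degrees of freedom, gave 7730 called features between prehypertrophic and proliferative samples in place of 12483. Leaving out 1 array in turn gave 12935 to 15065 called features between hypertrophic and proliferative samples, 8768 to 11331 between prehypertrophic and proliferative samples, and 12352 to 15069 between hypertrophic and prehypertrophic samples.

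Averaging the probes of a gene reversed Hsd17b7 (0.78), Stard4 (0.23), Nus1 (0.31), Ggps1 (-0.03), Mbtps2 (0.44) and Lpin2 (0.59) between hypertrophic and proliferative samples, Nus1 (0.15) and Fabp4 (0.07) between prehypertrophic and proliferative samples, and Ggps1 (-0.26) and Mbtps2 (0.21) between hypertrophic and prehypertrophic samples; the cause was not tested. Other reversals were of changes near 0 that were not called. Without loess Ggps1 was -0.02 between hypertrophic and prehypertrophic samples, and with flagged spots kept Mbtps2 was 0.02 between hypertrophic and proliferative samples. With each channel fitted separately Insig1 was 0.01 between hypertrophic and prehypertrophic samples. Leaving out 1 array gave Insig1 -0.05 to 0.02, Mvk -0.05 to 0.04 and Ggps1 -0.01 to 0.01 in that comparison, and Lss -0.02 to 0.11, Scd2 from -0.03 to 0.44 and Fabp4 from -0.11 to 0.15 between prehypertrophic and proliferative samples. Without the array of proliferative and prehypertrophic replicate 4, Scd2 passed there at 0.44 (adjusted p = 0.0211, limma).

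Samples of different zones share replicate numbers, but the numbers were not found to pair samples beyond the array. Of 12 same-numbered pairs 6 had correlated deviations over 0.1 (-0.25 to 0.61), and 4 of the 12 pairs share an array. Among the 8 same-numbered pairs on different arrays, 2 were over 0.1 (-0.25 to 0.30). The best correlation of 9 of 12 samples was with their own number, a count that includes pairs on the same array. Blocking on the replicate number in the separate-channel fit left 18 members peaking in the prehypertrophic zone, and gave Mvk and Insig1 0.12 and 0.10 between hypertrophic and prehypertrophic samples.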

Other observations

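Genes that store and burn fatty acids were also listed, beside the 6 fatty acid synthesis genes, all of which were lower in the hypertrophic zone. Of 19 measured genes of glycerolipid synthesis and lipid droplets, 9 were higher (47.4%) and 8 lower (42.1%) in hypertrophic than in proliferative samples, against 28.2% and 30.7% of all features. Gpat3, which adds the first fatty acid to glycerol phosphate, was higher by 2.96 ± 0.033 in hypertrophic and by 1.90 ± 0.033 in prehypertrophic than in proliferative samples (SE, adjusted p = 1.82e-05 and 4.24e-05, limma). Agpat3, which adds the next, was higher by 1.28 ± 0.025 and Pnpla2, the lipase of stored fat, by 1.36 ± 0.037 in hypertrophic than in proliferative samples (SE, adjusted p = 2.01e-05 and 3.18e-05, limma), and by 0.71 and 0.78 with probes averaged. Lpin2, a phosphatase of the same route, was lower, with a log2 change of -1.42 ± 0.027 in prehypertrophic than in proliferative samples (SE, adjusted p = 4.49e-05, limma), and of -0.87 with probes averaged.

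Of 17 measured genes of fatty acid oxidation, 5 were higher (29.4%) and 3 lower (17.6%) in hypertrophic than in proliferative samples, against 28.2% and 30.7% of all features, so the higher share was near that of all features. Cpt1a, which admits fatty acids to mitochondria, was higher by 1.48 ± 0.045, Acaa2 and Cpt2 by 0.60 ± 0.026 and 0.46 ± 0.029, and Hadh was lower, with a log2 change of -1.08 ± 0.049 (SE, adjusted p = 4.12e-05, 0.000104, 0.00032 and 0.000116, limma). With probes averaged Cpt1a was at 0.66. The leukocyte and marrow markers were higher in the same zone, and their part in these values was not tested.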
